A study of Rattus norvegicus with 4 samples.

Results

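The chloride and anion channels examined were 10 genes chosen by name, namely the cAMP-gated channel gene Cftr, the bestrophin gene Best2, the anoctamin genes Ano1, Ano6 and Ano10, the ClC genes Clcn2, Clcn3 and Clcn4, and the genes Lrrc8a and Lrrc8d of the volume-regulated anion channel. Of these, 5 could be matched to a row of the array with a single gene symbol (Cftr, Best2, Clcn2, Clcn4 and Lrrc8d, 1 row each). The other 5 (Ano1, Ano6, Ano10, Clcn3 and Lrrc8a) were not analysed here, since no row with a single gene symbol matched them. Whether these genes are among the 5456 rows with no symbol was not tested. The array table held 19403 rows in all, of which 13327 had 1 gene symbol.

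The cells were surface colonocytes shaken off inverted distal colons of adrenalectomized Wistar rats aged 12 weeks. Aldosterone rats (n = 2) had received a subcutaneous injection of 50 µg aldosterone per 100 g body weight and an osmotic minipump delivering 10 µg/kg per hour, and vehicle rats (n = 2) the vehicle and a minipump with PEG300. All rats were used 4 days after both adrenal glands were removed, had 0.9% NaCl to drink and were killed after 2 h of treatment, and 100 nM aldosterone or vehicle was also in the solution during the 40 min of shaking. All 4 rats therefore lacked adrenal hormones other than the aldosterone given, and each gave 1 exon array. The question was which genes differ after short exposure to the hormone.

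Anion channels let chloride and bicarbonate cross the colonic epithelium down their gradients. In fluid secretion, chloride enters the cell from the blood side through the cotransporter NKCC1 and leaves to the lumen, mainly through CFTR, which opens on cAMP-dependent phosphorylation. Bestrophins and some anoctamins open on a rise of cell calcium, ClC-2 lies in the basolateral membrane of colonocytes and passes chloride to the blood side, ClC-4 is a chloride/proton exchanger of intracellular membranes, and LRRC8 proteins form the channel that lets swollen cells lose anions and small organic solutes. Best2 is known in the mouse colon as a gene of goblet cells.

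Values are log2 expression values deposited by the authors, with group means ± SD (n = 2 rats), and differences are aldosterone minus vehicle on the log2 scale with their 95% interval from limma. The median of the row means was 2.35 and 65.0% of rows had a mean below 3, so that a row below 2.35 lay near the low end of the arrays and no fold is given for it. Scnn1g and Sgk1, known aldosterone targets, differed by 5.09 and 1.95. In limma with a constant prior variance, 0 of 19403 rows had an adjusted p under 0.05 (0% called), 879 rows (4.53%) had an unadjusted p under 0.05, and 21 rows (0.108%) passed when the prior variance followed the expression level. The epithelial identity of the cells showed in the surface markers Slc26a3 (12.75 and 12.61 in aldosterone rats, 11.96 and 12.30 in vehicle rats), Car4 and Guca2a, all 7 measured surface markers lying above the median of row means. Of the 7, 6 were higher and 1 lower in aldosterone rats (5 and 2 with arrays centred on their medians). In 4 the groups did not overlap, with aldosterone higher, beside 16.7% of all rows. They summed on the linear scale to 18262 and 19419 in aldosterone rats, against 13825 and 17798.5 in vehicle rats. Kit, which marks the interstitial cells of Cajal that carry Ano1, stood between 2.62 and 2.63 in aldosterone rats and between 2.45 and 2.54 in vehicle rats, and 6 measured leukocyte markers (5 higher and 1 lower in aldosterone rats, but 2 and 4 with arrays centred on their medians) summed on the linear scale to 34.3 and 42.3 in aldosterone rats against 38.7 and 32.0 in vehicle rats. The 8 measured markers of interstitial cells and smooth muscle summed to 41.9 and 44.5 in aldosterone rats, against 42.2 and 44.0 in vehicle rats.

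The upstream sequences of 3 members are shown because these genes behaved differently: Best2 differed most between the groups, Cftr lay near the low end in every rat, and Clcn2 was well above it in every rat. Each is the 250 bases before the transcription start listed by RefSeq for the gene (GRCr8 assembly), 5′ to 3′ on the plus strand, with each CG dinucleotide in capitals. The listed starts of Cftr and Clcn2 lie inside the span that RefSeq annotates for the gene, so other transcripts begin further upstream.
Best2, chr19:40046941-40047190: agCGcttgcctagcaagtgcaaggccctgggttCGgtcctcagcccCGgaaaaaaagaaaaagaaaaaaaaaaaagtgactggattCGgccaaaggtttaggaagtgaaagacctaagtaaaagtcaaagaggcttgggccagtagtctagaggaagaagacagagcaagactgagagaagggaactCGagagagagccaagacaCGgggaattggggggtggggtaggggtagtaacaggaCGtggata
Cftr, chr4:47527379-47527628: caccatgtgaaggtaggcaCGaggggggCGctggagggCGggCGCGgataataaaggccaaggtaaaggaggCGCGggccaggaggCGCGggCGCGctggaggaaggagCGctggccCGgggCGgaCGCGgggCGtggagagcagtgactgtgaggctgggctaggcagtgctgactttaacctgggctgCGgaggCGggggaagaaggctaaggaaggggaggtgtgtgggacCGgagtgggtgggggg
Clcn2, chr11:93702344-93702593: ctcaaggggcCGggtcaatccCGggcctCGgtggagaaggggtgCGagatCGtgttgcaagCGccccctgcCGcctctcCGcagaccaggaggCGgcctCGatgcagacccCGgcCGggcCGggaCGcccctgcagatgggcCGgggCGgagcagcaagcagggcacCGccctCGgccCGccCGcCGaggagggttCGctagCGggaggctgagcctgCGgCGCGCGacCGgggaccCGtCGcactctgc
The Best2 stretch held 7 CG dinucleotides and 49.6% G and C, close to the medians of all 33469 RefSeq windows (5 CG and 51.2%). The Cftr stretch held 20 CG and 69.2% G and C, and the Clcn2 stretch 30 CG and 75.6%. A search of the 300-base windows (250 bases before and 50 after the start, both strands) looked for the corticosteroid receptor element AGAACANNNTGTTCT, its half-site AGAACA, which lies within it, and TGACG, the core of the cAMP response element. None of the 5 windows of the measured members held any of the 3 motifs. The half-site was found in 20.7% of all windows and TGACG in 21.2%, and the whole receptor element in 0.0149% (5 windows).

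Best2, a calcium-gated anion channel gene, was the member that differed most (row 7179735). It stood at 3.08 and 3.95 in the aldosterone rats, against 2.02 and 2.02 in the vehicle rats. Both aldosterone rats lay above both vehicle rats, the vehicle rats were below the median of row means, and the aldosterone rats differed from each other by 0.87. The means were 3.52 ± 0.62 in aldosterone rats and 2.02 ± 0.0035 in vehicle rats (SD, n = 2 each), a difference of 1.49 (interval 0.62 to 2.37). That difference did not pass the threshold (adjusted p = 0.811 in limma, unadjusted p = 0.00889), nor did it with a prior variance that followed the expression level (adjusted p = 0.112). In the linear model without moderation, where no variance is borrowed from other rows, the unadjusted p was 0.0758. The difference was 1.48 after quantile normalization and 1.44 with arrays centred on their medians. With single arrays left out it ran from 1.06 (without aldosterone replicate 2) to 1.93 (without aldosterone replicate 1). Its sign could not turn there, since the groups did not overlap, and the filters and other fits left the difference itself unchanged. An upward difference at least as large as that over all 4 arrays was found in 41 of the 19403 rows (0.211%). Among the 9941 rows whose vehicle mean lay below 2.35 it was found in 5, Best2 included.

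**Figure D1:**
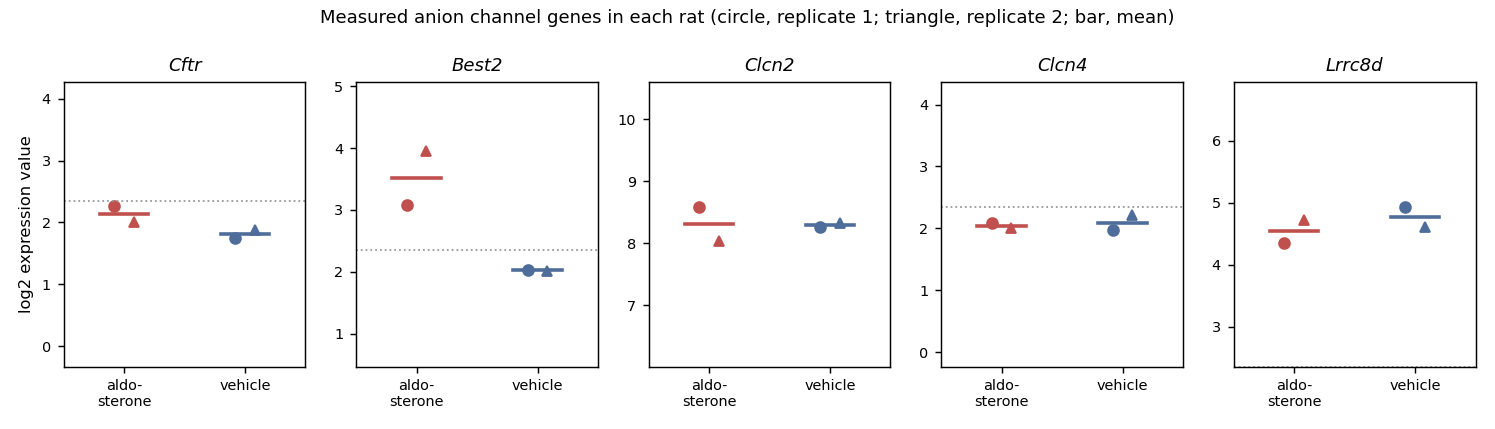
Log2 expression values of the 5 measured anion channel genes in each rat, with aldosterone rats left of vehicle rats. Circles are replicate 1, triangles replicate 2 and bars group means. The dotted line, where in range, is the median of row means, 2.35. Each panel spans the same number of log2 units. Both aldosterone rats lie above both vehicle rats for Best2 (3.08 and 3.95 against 2.02 and 2.02) and, within a narrow range near the low end, for Cftr.

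Goblet cell markers are given beside Best2, since it is a goblet cell gene in the mouse. Of 10 listed markers 6 were measured, 4 higher and 2 lower in aldosterone rats, and their summed level on the linear scale was 1467 and 4179 in aldosterone rats against 3037 and 2652 in vehicle rats. The lectin gene Zg16 stood at 6.39 and 8.06 in aldosterone rats, against 5.14 and 4.45 in vehicle rats, a difference of 2.43 (interval 0.67 to 4.19, adjusted p = 0.891 in limma). As with Best2, both aldosterone rats were above both vehicle rats and replicate 2 was the higher of the aldosterone pair. The trefoil factor gene Tff3 stood at 9.44 and 11.30 in aldosterone rats and 11.12 and 10.74 in vehicle rats, and Agr2, a disulfide isomerase gene of mucus-producing cells, at 7.69 and 8.52 against 7.89 and 7.91. For both, the aldosterone rats spanned the vehicle rats, with replicate 2 the higher of the aldosterone pair again. Atoh1, the transcription factor gene of the secretory lineage, stood at 8.27 and 9.74 in aldosterone rats and 8.27 and 8.94 in vehicle rats. Creb3l1, a transcription factor gene of secretory cells, separated the groups downward, at 7.39 and 7.36 in aldosterone rats against 7.79 and 7.53 in vehicle rats. Over the list, 2 of the 6 measured markers separated the groups upward, beside 16.7% of all rows, and 1 downward, beside 11.1%. Besides Zg16 the upward marker was Spink4, below the median of row means in every rat, at 1.91 and 1.96 against 1.77 and 1.86. The part of the goblet cell share in the Best2 difference was not tested. In bulk RNA a change in the number of cells of a type and a change in RNA per cell cannot be told apart.

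**Figure D2:**
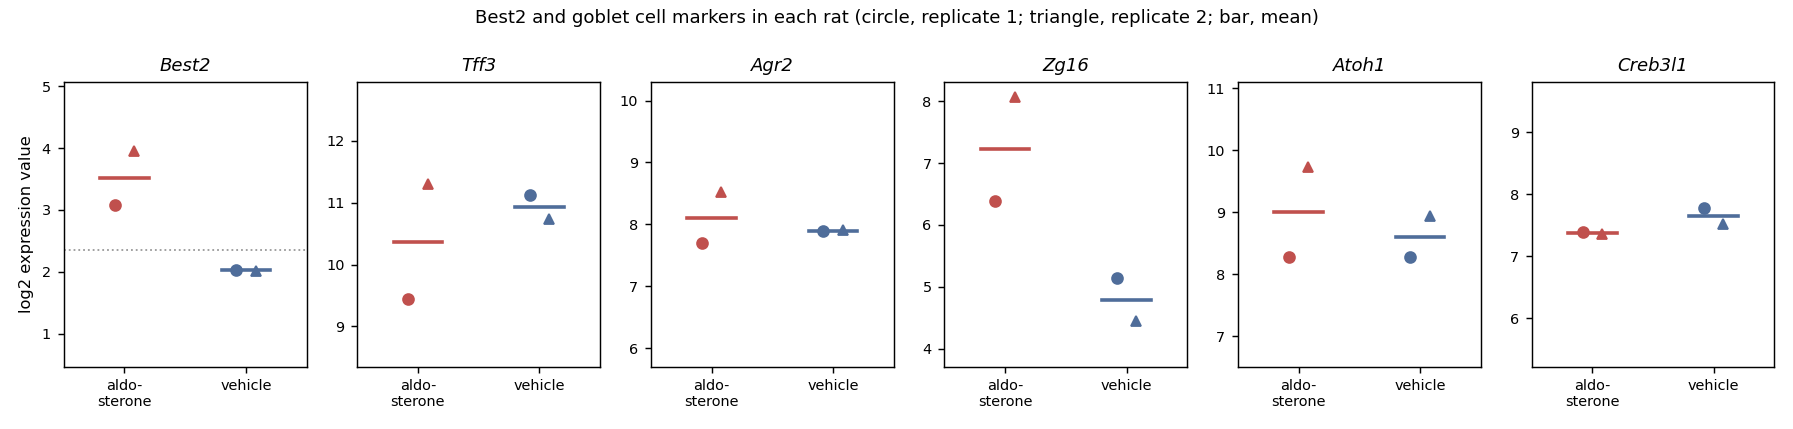
Log2 expression values of Best2 and 5 measured goblet cell markers in each rat, with aldosterone left and vehicle right. Circles are replicate 1, triangles replicate 2 and bars means. The dotted line, where in range, is 2.35, the median of row means. Zg16 (6.39 and 8.06 against 5.14 and 4.45) separates the groups upward as Best2 does and Creb3l1 (7.39 and 7.36 against 7.79 and 7.53) downward, while for Tff3 and Agr2 the aldosterone rats lie on both sides of the vehicle rats.

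Cftr, the cAMP-gated channel gene (row 7251467), lay below the median of row means in every rat. Its values were 2.27 and 2.01 in aldosterone rats and 1.74 and 1.87 in vehicle rats. The groups did not overlap, with means of 2.14 ± 0.18 and 1.81 ± 0.092 (aldosterone and vehicle, n = 2 each), a difference of 0.33 (interval -0.055 to 0.71, adjusted p = 1.00 in limma). The difference was 0.31 after quantile normalization and 0.27 with arrays centred on their medians. With single arrays left out it ran from 0.20 (without aldosterone replicate 1) to 0.46 (without aldosterone replicate 2). Its sign could not turn there, since the groups did not overlap. Cftr and Best2 were thus the 2 of 5 measured members with groups that did not overlap, both higher in aldosterone rats. Over all rows, 27.8% did not overlap, 16.7% with aldosterone higher and 11.1% with aldosterone lower. Whether values this low hold transcript or background was not tested, as no detection calls were used here.

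Clcn2, the gene of the basolateral channel ClC-2 (row 7089599), was well above the low end in all rats. It stood at 8.59 and 8.04 in aldosterone rats, against 8.27 and 8.33 in vehicle rats. The aldosterone rats were the highest and the lowest of the 4, so the groups overlapped. The means were 8.32 ± 0.39 in aldosterone rats and 8.30 ± 0.042 in vehicle rats, a difference of 0.016 with an interval of -0.58 to 0.61 (adjusted p = 1.00 in limma). The sign rested on single arrays, with a difference of -0.26 without aldosterone replicate 1, 0.29 without aldosterone replicate 2 and -0.014 without vehicle replicate 1. The interval leaves room for a change of about 0.6 log2 units either way.

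Clcn4, the gene of the intracellular exchanger ClC-4 (row 7374466), lay below the median of row means in every rat, at 2.08 and 2.00 in aldosterone rats and 1.97 and 2.22 in vehicle rats. The difference was -0.050 (interval -0.41 to 0.31), and the vehicle rats spanned the aldosterone rats. It was 0.073 without vehicle replicate 2.

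Lrrc8d encodes the subunit that, together with LRRC8A, lets the volume-regulated channel pass larger organic solutes (row 7122724). It stood at 4.35 and 4.73 in aldosterone rats, against 4.93 and 4.60 in vehicle rats. The lowest value was an aldosterone rat and the highest a vehicle rat, but the groups overlapped. The means were 4.54 ± 0.26 in aldosterone rats and 4.77 ± 0.24 in vehicle rats (SD, n = 2 each), a difference of -0.23 (interval -0.78 to 0.32, adjusted p = 1.00 in limma). The rats within each group were 0.37 (aldosterone) and 0.33 (vehicle) apart, more than the distance between the group means. With single arrays left out the difference ran from -0.42 (without aldosterone replicate 2) to -0.042 (without aldosterone replicate 1), and it was -0.062 without vehicle replicate 1.

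As a list, 3 of the 5 measured members were higher and 2 lower in aldosterone rats, with a median difference of 0.016, beside 58.3% of all rows higher and a median over all rows of 0.024. These shares over all rows turned with the scaling, to 51.2% higher (median 0.0028) after quantile normalization and 38.6% higher (median -0.034) with arrays centred on their medians, where 2 members were higher and 3 lower. The members' median was that of Clcn2, whose sign changed with the arrays left out. With the constant prior Best2 was the 1 member of 5 with an unadjusted p under 0.05 in limma, and over all rows 2.19% had such a p with aldosterone higher. With the intensity trend both Best2 and Cftr had one, and 4.67% of all rows did in either direction.

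Among 40 other anion channel genes, 26 were measured, 15 of them higher and 11 lower in aldosterone rats, with a median difference of 0.033, a split of 9 and 17 (median -0.025) with arrays centred on their medians. None passed the adjusted p in limma with either prior, and 1 of the 26 had an unadjusted p under 0.05 with the constant prior, where 4.53% of all rows did. That gene was Ano9, an anoctamin gene, which lost it with the intensity trend. It stood at 5.58 and 5.54 in aldosterone rats against 6.28 and 5.96 in vehicle rats (difference -0.56, interval -0.96 to -0.15, adjusted p = 0.898). Slco2a1, a prostaglandin transporter gene whose product is also a core part of the maxi-chloride channel, stood at 8.38 and 8.06 in aldosterone rats and 8.59 and 8.63 in vehicle rats. Its difference was -0.39 (interval -0.79 to 0.0091), and -0.24 without aldosterone replicate 2. Clcc1, a chloride channel gene of the endoplasmic reticulum, stood at 3.74 and 3.77 against 3.60 and 3.57, a difference of 0.17 (interval -0.097 to 0.44). The other bestrophin genes Best1, Best3 and Best4 lay below 2.35 in all rats, with differences of 0.059, 0.097 and -0.0046. Best2 was thus the 1 bestrophin whose aldosterone values lay above the median of row means.

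**Figure D3:**
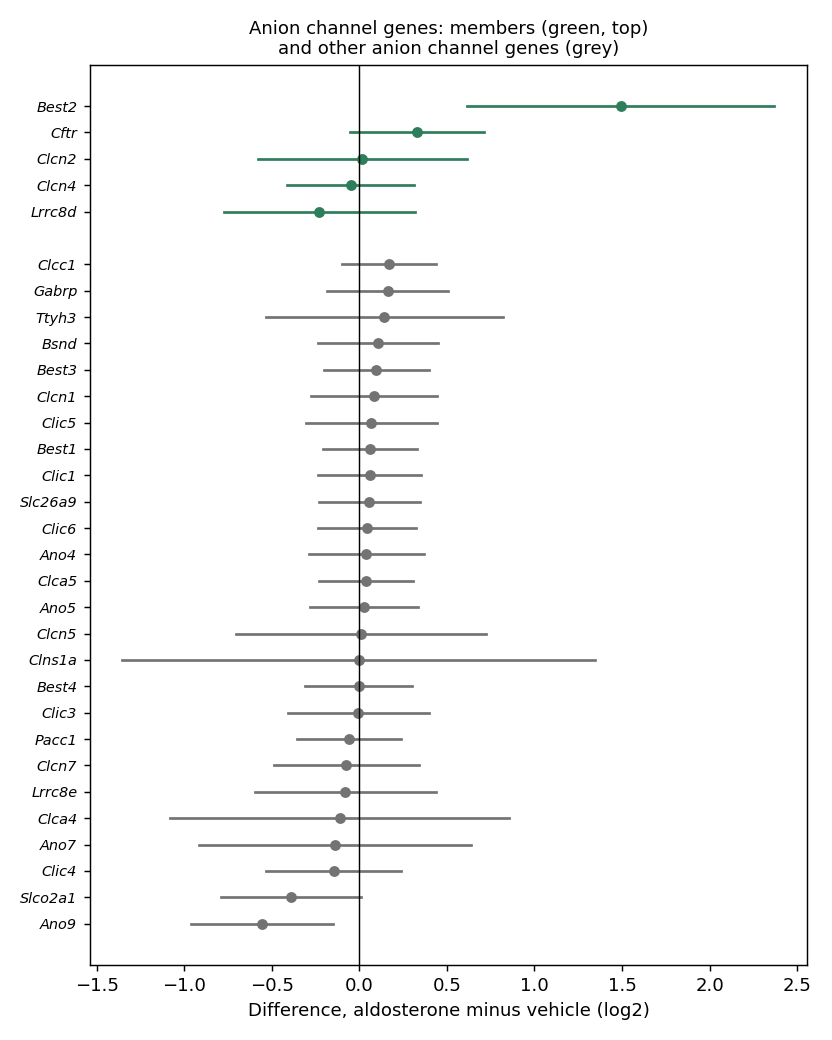
Difference between aldosterone and vehicle rats (log2, x axis) with its 95% interval from limma for the 5 measured members (green) and 26 other genes of anion channel families, their subunits and regulators (grey). The intervals of Best2 (0.62 to 2.37) and Ano9 (-0.96 to -0.15) are the ones that leave out 0, before any adjustment for the number of rows tested. In the linear model without moderation, their unadjusted p were 0.0758 and 0.0752.

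Slc12a2 and Kcne3, basolateral partners of chloride secretion, stood higher in aldosterone rats. Of 8 listed partner genes 7 were measured, 4 higher and 3 lower in aldosterone rats, with a median difference of 0.28. Slc12a2, the gene of NKCC1, stood at 6.33 and 6.33 in aldosterone rats against 4.66 and 4.17 in vehicle rats (difference 1.91, interval 1.38 to 2.45). It did not pass with the constant prior (adjusted p = 0.438 in limma) and passed when the prior variance followed the expression level (adjusted p = 0.0494). Kcne3, the potassium channel subunit gene that keeps the basolateral channel KCNQ1 open, stood at 4.29 and 4.36 in aldosterone rats and 2.93 and 3.63 in vehicle rats (difference 1.04, interval 0.32 to 1.77, adjusted p = 0.886). Its partner gene Kcnq1 stood at 5.21 and 5.52 in aldosterone rats and 5.05 and 4.99 in vehicle rats, a difference of 0.35 (interval -0.053 to 0.75). For these 3 genes, fixed by name, both aldosterone rats lay above both vehicle rats. Over the list, 4 of the 7 measured genes did so, beside 16.7% of all rows. In 1 of the 7 both aldosterone rats lay below, beside 11.1% of all rows. Kcne3 differed by 0.69 without vehicle replicate 1, and Kcnq1 by 0.19 without aldosterone replicate 2. Slc4a2, a basolateral chloride/bicarbonate exchanger gene, lay the other way, at 7.26 and 7.10 in aldosterone rats and 7.49 and 7.48 in vehicle rats (difference -0.31, interval -0.61 to 0.00056).

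**Figure D4:**
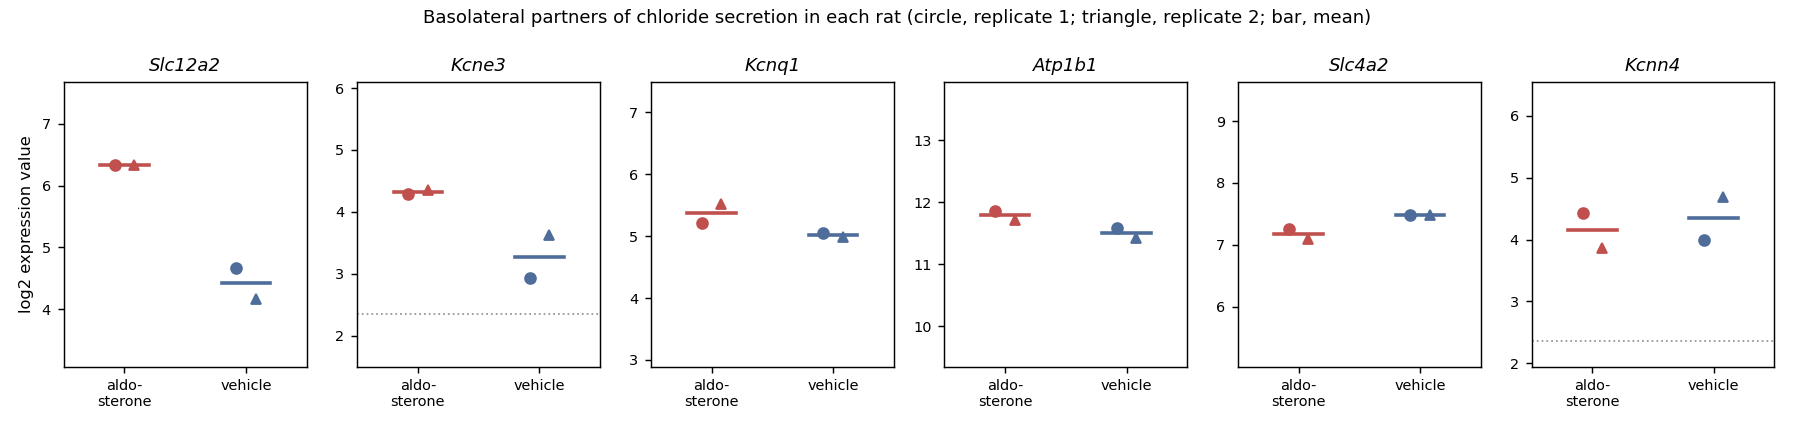
Log2 expression values of 6 basolateral partners of chloride secretion in each rat (aldosterone left, vehicle right; circles, replicate 1; triangles, replicate 2; bars, means; dotted line, where in range, 2.35, the median of row means). Slc12a2 (6.33 and 6.33 against 4.66 and 4.17) and Kcne3 (4.29 and 4.36 against 2.93 and 3.63) are higher in both aldosterone rats, and Kcnn4 overlaps between the groups.

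Genes of the cAMP pathway and regulators of CFTR, among them receptors, kinases, scaffolds and trafficking genes, lay on both sides of 0, with 12 of 21 measured genes higher, 9 lower and a median difference of 0.013, and 8 higher and 13 lower (median -0.045) with arrays centred on their medians. None of the 21 passed the adjusted p in limma with either prior, and 2 had an unadjusted p under 0.05 with the constant prior, both higher, beside 2.19% of all rows. With the intensity trend Adora2b kept such a p and Nherf2 did not. Adora2b, the adenosine receptor gene whose product raises cAMP in colonocytes, stood at 7.97 and 7.79 in aldosterone rats against 7.02 and 7.25 in vehicle rats (difference 0.74, interval 0.36 to 1.13, adjusted p = 0.757). Nherf2, a scaffold gene of apical transport proteins, stood at 2.84 and 2.83 in aldosterone rats and 2.53 and 2.57 in vehicle rats (difference 0.29, interval 0.023 to 0.55). Prkar2a, a regulatory subunit gene of protein kinase A, stood at 6.12 and 5.65 in aldosterone rats and 5.55 and 5.20 in vehicle rats, a difference of 0.51 (interval -0.11 to 1.13), which was 0.28 without aldosterone replicate 1 and 0.34 without vehicle replicate 2.

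On the calcium side, which opens bestrophins and anoctamins, 9 of 14 measured genes were lower in aldosterone rats and 5 higher, with a median difference of -0.34. None of the 14 passed the adjusted p in limma with either prior, and 3 had an unadjusted p under 0.05, all lower, beside 2.34% of all rows. The ATP and UTP receptor gene P2ry2 stood at 3.30 and 3.43 in aldosterone rats against 3.84 and 4.35 in vehicle rats (difference -0.73, interval -1.31 to -0.16, adjusted p = 0.932). Stim2, a sensor gene of calcium stores, stood at 4.53 and 4.52 in aldosterone rats and 5.05 and 4.83 in vehicle rats (difference -0.42, interval -0.75 to -0.082). Gna11, a G protein gene that couples such receptors to phospholipase C, stood at 8.89 and 8.68 in aldosterone rats and 9.57 and 9.11 in vehicle rats (difference -0.55, interval -1.10 to -0.0013). In these 3 genes, picked for the smallest p of the list, both aldosterone rats lay below both vehicle rats. Over the list, 4 of the 14 measured genes did so, beside 11.1% of all rows. In 1 of the 14 both aldosterone rats lay above, beside 16.7% of all rows. With the intensity trend P2ry2 kept an unadjusted p under 0.05, and Stim2 and Gna11 did not. The difference was -0.47 for P2ry2 without vehicle replicate 2 and -0.32 for Gna11 without vehicle replicate 1.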

How the data were processed

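Gene expression was measured on Affymetrix exon arrays, 1 per rat, in 2 aldosterone and 2 vehicle rats; per the labels these are separate animals. The values are log2 expression values as deposited by the authors, 1 per transcript cluster (row) and array. The tools named, per the submitters' processing notes, were Affymetrix Expression Console, RMA and Partek, without versions or order; the log2 scale was read from the range of 1.36 to 13.7. The array medians of the deposited values lay between 2.22 and 2.44, so that another scaling moves small differences. The build is not given in the sources used here. Precision is limited by the number of arrays.

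Row names came from the platform annotation, with Entrez IDs checked against RefSeq (GRCr8); the row with the highest mean stood for a gene. All 19403 rows entered 1 fit in limma 3.58.1, under R 4.3.3 (lmFit, eBayes, constant prior, two-sided), treatment being the only term, with Benjamini-Hochberg adjustment over all rows and a threshold of 0.05. In simulated data (10 draws, 200 changed rows) changes were put in rows with a mean of 4 or more, above the levels of Best2, Cftr and Clcn4. This fit recovered 3.73% of changes of 1, 42.7% of changes of 2 and 91.7% of changes of 4 log2 units. The fit with the intensity trend, from which the simulated spread was drawn, recovered 37.2%, 99.6% and 100%. Simulated rows of the same level all had the same true spread, so these shares do not measure the power on real rows. In the data, Scnn1g (5.09) and Sgk1 (1.95) had adjusted p of 0.402 and 0.332 in limma with the constant prior. Alternatives were other scalings, filters, priors, a replicate block and each array left out. The members and lists were chosen with earlier results of these data known. Named are all members, the 3 genes of smallest p in each of the 4 pathway and channel lists, 5 genes fixed by name and marker genes of highest mean or defining role. Zg16, Creb3l1, Spink4, Mki67, Best1, Best3, Best4 and Kcnn4 were named after their values were seen. Promoter windows are from RefSeq (GRCr8). Figures used Python 3.11.15, pandas 2.3.3 and matplotlib 3.10.9.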

Additional observations from a re-analysis of the deposited data

How the results depend on the processing

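The count of rows past the adjusted threshold (0) became 21 with the intensity trend and 1 with rows below the median of row means left out; the latter also brought the rows at an unadjusted p under 0.05 from 879 to 523. The median difference over the measured members (0.016) was -0.042 with arrays centred on their medians, as was that of Clcn2, and ran from -0.042 to 0.29 with single arrays left out. Leaving out single arrays gave -0.26 to 0.29 for Clcn2 and -0.17 to 0.073 for Clcn4; the cause was not tested. Best2, Cftr and Lrrc8d kept their sign under both other scalings, and Lrrc8d also with single arrays left out. The remaining alternatives could not turn the sign of Best2 or Cftr. None of the 5 measured members passed the adjusted threshold in any fit of all 4 arrays. Cftr and Clcn4 had no value with rows below the median left out. Cftr and Clcn4 lay too near the low end for a fold. The replicate block called 0 rows and 1282 at an unadjusted p under 0.05; same-numbered rats deviated together with a correlation of 0.15 across rows, which with 2 pairs does not pair them. Best2 had an adjusted p = 0.641 with the block. Averaging several rows per gene was not run, as each measured member had 1 row. With 1 array left out, the remaining rat of that group is taken to vary as the other group does.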

Other observations

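Of the 9 measured crypt markers, 5 had a mean below the median of row means and 4 at or above it. All 9 were higher in aldosterone rats, beside 58.3% of all rows, with a median difference of 0.17 beside 0.024 over all rows. In 4 of the 9 the groups did not overlap, with aldosterone higher, beside 16.7% of all rows. With arrays centred on their medians 8 of the 9 were higher, beside 38.6% of all rows, with a median of 0.11 beside -0.034. The largest difference of the list was that of Axin2. Axin2, a Wnt target gene, stood at 3.51 and 3.20 in aldosterone rats against 2.72 and 2.72 in vehicle rats (difference 0.64, interval 0.24 to 1.04, adjusted p = 0.853 in limma), and the proliferation gene Mki67 at 2.23 and 1.92 against 1.92 and 2.02. Clca4, a gene of the calcium-activated chloride channel regulators chosen once its values were known, had the same order of rats as Clcn2, at 8.69 and 7.72 in aldosterone rats and 8.29 and 8.34 in vehicle rats. The inositol trisphosphate receptor gene Itpr3, chosen likewise, stood at 6.98 and 6.81 in aldosterone rats against 8.19 and 7.26 in vehicle rats (difference -0.83, interval -1.77 to 0.10).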
